A study of Schizosaccharomyces pombe with 3 samples.

Results

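The regions described here are 326 stretches of the chromosome arms of fission yeast, Schizosaccharomyces pombe, that were poor in Psc3 on every array measured. They hold 1095 of 36866 arm tiles with a value (2.97%), chosen because their mean log2 ratio of Psc3 ChIP over input, over 3 neighbouring tiles, was -0.7 or lower in all 3 groups. Cohesin is the ring-shaped complex that holds sister chromatids together, and Psc3 is one of its subunits. Along yeast chromosome arms cohesin is known to be loaded at some sites and to gather at others, often where transcription of neighbouring genes meets, so that the spaces between its peaks hold less of it.

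Psc3 carrying a GFP tag was precipitated with an antibody against GFP, and the recovered DNA (ChIP, Cy5) was hybridised together with DNA of the whole-cell extract (input, Cy3) to a 2-colour Agilent tiling array. There were 3 arrays, 1 for each group. The clr4d cells lack Clr4, the methyltransferase that marks lysine 9 of histone H3 in heterochromatin, and grew in rich medium at 30 °C. The cdc10-v50 cells carry an allele of cdc10, a transcription factor gene needed to enter S phase, and were grown at 26 °C before 4 h at 35 °C, which arrests them in G1. The wild-type cells carry the mating-type allele mat1Msmto, the markers leu1-32 and ade6-216, and Psc3-GFP::kanMX, and grew at 30 °C. For both mutants the labels give the allele alone, beside Psc3-GFP in the title. All cultures were fixed at 18 °C for 30 min and then treated with dimethyl adipimidate for 45 min. No group has a second array, so no difference below has a replicate check and no p-value is given. The SDs in the text are over tiles, which share an array and lie next to each other.

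The array covers the genome in tiles of 300 bp. For each tile the log2 ratio of Cy5 over Cy3 was taken and the median of its array subtracted, and S is the mean of that ratio over a tile and its neighbours on either side. Arm tiles are those of chromosomes I to III more than 100 kb from an end and outside an interval around each centromere and one around the mating-type region of chromosome II. Psc3-poor tiles are arm tiles with S of -0.7 or lower in all 3 groups, and Psc3-poor stretches are such tiles joined within 1 kb. The stretches cover 357 kb of 11132.1 kb. The levels of these tiles in the 3 groups chose them and are given as a description. Over all arm tiles, 11.2% passed the threshold in clr4d, 7.68% in cdc10-v50 and 12.1% in wild type. The 5 tiles just inside the threshold had S between -0.7010 and -0.7003 in the group where each was highest, and the 5 just outside had -0.6998 to -0.6994. Within 0.05 of the threshold lay 306 tiles inside and 367 outside, these 10 included. In the left-out readings given below, 63.2% to 64.8% of the tiles chosen on 2 arrays also passed on the array left out. The label did not hold under every normalization: after loess within each array, 165 of the 1095 tiles still passed.

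Positions are those of the array, counted from 1, and the sources used here do not name its genome build. On chromosome III between 100 and 1000 kb the input signal followed the GC content of the reference assembly ASM294v3 best at shifts of -140 to 40 bp, in 9 stretches of 100 kb, so genes are named in that interval alone. The bases at 3 Psc3-poor tiles there are shown because they carry the main kinds of position found below: the middle of the bfr1/wee1 gap, the middle of the mug4/fil1 gap, and the 5′ end of the cut1 coding region. They are read from RefSeq ASM294v3, chromosome III, plus strand, at chr3:717001-717300, chr3:810601-810900 and chr3:644101-644400, and capitals mark runs of 6 or more A or T on this strand.
bfr1/wee1 gap: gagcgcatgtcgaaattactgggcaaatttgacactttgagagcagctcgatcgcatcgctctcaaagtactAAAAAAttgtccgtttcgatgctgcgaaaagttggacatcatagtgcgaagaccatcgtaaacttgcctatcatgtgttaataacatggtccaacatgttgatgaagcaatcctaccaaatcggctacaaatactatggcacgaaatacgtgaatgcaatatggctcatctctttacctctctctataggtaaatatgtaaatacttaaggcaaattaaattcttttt
mug4/fil1 gap: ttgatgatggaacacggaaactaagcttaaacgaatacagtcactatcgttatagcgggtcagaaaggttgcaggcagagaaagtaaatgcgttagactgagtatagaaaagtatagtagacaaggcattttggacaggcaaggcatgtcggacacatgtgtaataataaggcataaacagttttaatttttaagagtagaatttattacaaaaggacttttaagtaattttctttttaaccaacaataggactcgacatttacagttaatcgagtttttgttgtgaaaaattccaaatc
cut1 coding region: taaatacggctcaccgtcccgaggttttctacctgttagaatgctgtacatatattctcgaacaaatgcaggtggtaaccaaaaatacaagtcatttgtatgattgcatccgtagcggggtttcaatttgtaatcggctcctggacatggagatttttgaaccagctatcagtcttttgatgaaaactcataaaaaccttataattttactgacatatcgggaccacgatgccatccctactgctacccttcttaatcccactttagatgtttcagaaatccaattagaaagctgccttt
The bfr1/wee1 tile overlaps no annotated mRNA and had a GC content of 38.7%. Its log2 ratio was -1.500 in clr4d, -1.24 in cdc10-v50 and -1.27 in wild type. The mug4/fil1 tile likewise overlaps no annotated mRNA, has a GC content of 34.0%, and read -1.21 in clr4d, -1.02 in cdc10-v50 and -0.89 in wild type. The cut1 tile, with 39.7% GC, read -1.45 in clr4d, -1.31 in cdc10-v50 and -0.89 in wild type. Annotated noncoding RNAs overlap all 3 tiles. Only the first sequence holds such a run.

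The stretches were short and scattered over every arm. Their median length was 900 bp, with a range from 300 to 6000 bp. A single tile made up 92 of them, 50 were at least 2 kb long, and those 50 held 40.2% of the total length. Chromosome I held 147 stretches, or 28.7 per Mb of tiles, chromosome II held 113, or 28.1 per Mb, and chromosome III held 66, or 33.3 per Mb. On each chromosome the right arm had the higher share of Psc3-poor tiles. It was 3.67% on the right arm against 2.49% on the left arm of chromosome I, 3.52% against 2.34% on chromosome II, and 3.24% against 2.66% on chromosome III. The median gap between neighbouring stretches was 25.2 kb, with a range from 1.2 to 317.1 kb, and 125 stretches had another within 5 kb.

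The same rule turned round, with S of 0.7 or higher in all groups, gave a mirror set of 314 Psc3-rich stretches with 2295 tiles. The rich stretches were longer, with a median of 1950 bp. Poor stretches lay a median of 15.75 kb from the centre of the nearest rich one, and arm tiles outside both sets 11.85 kb. No poor stretch had its centre closer than 3 kb to a rich centre. Both sets were cut from the same S, so these distances follow in part from the rule. At 3 kb to the left of rich centres the mean log2 ratio was still 0.36 in clr4d, 0.18 in cdc10-v50 and 0.36 in wild type.

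In the poor tiles the log2 ratio had a median of -1.05 in clr4d (SD 0.34, 1095 tiles), -0.92 in cdc10-v50 (SD 0.25, 1079 tiles not marked non-uniform) and -0.97 in wild type (SD 0.25, 1095 tiles). The other arm tiles had medians of 0.01 in clr4d (SD 0.66), -0.03 in cdc10-v50 (SD 0.56) and -0.03 in wild type (SD 0.61). Of the 1095 poor tiles, the software marked 2 as not well above background and 16 as non-uniform on some array. Among all 41551 genome probes, cdc10-v50, the array with most of both, had 79 not well above background and 1215 non-uniform. No poor tile was saturated in the Cy5 channel of wild type, against 1007 of 36866 arm tiles. The choice of low Cy5 over Cy3 disfavours such tiles.

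Both channels were dim in these tiles, the ChIP channel more so. Relative to the arm median of its channel, the Cy5 signal of poor tiles had a median log2 of -1.65 in clr4d, -1.46 in cdc10-v50 and -1.33 in wild type. Their Cy3 signal had medians of -0.61 in clr4d, -0.51 in cdc10-v50 and -0.32 in wild type. In processed intensity, poor tiles had a median Cy5 signal of 379 in clr4d, where other arm tiles had 1227. They had 404 in cdc10-v50, against 1140 in other arm tiles, and 635 in wild type, against 1631. With arm tiles cut into 4 equal groups by input, the dimmest held the largest share of poor tiles, 5.62% in clr4d, 5.66% in cdc10-v50 and 4.96% in wild type. The brightest held 0.749% in clr4d, 0.684% in cdc10-v50 and 0.966% in wild type. The part of the dim input in the low ratio was not tested.

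With distance from the stretch centres the input returned to the arm median before the ChIP signal did. At 2.4 kb to the left of the stretch centres, beyond the ends of most stretches, the mean log2 ratio was still -0.35 in clr4d, -0.35 in cdc10-v50 and -0.43 in wild type. There the Cy3 signal was at 0.10 in clr4d, 0.11 in cdc10-v50 and 0.08 in wild type relative to the arm median, and the Cy5 signal at -0.25, -0.22 and -0.36 in the same order of groups. The ratio at 3.6 kb to the left was -0.25 in clr4d, -0.23 in cdc10-v50 and -0.28 in wild type. By 7.2 kb to the right it was 0.01 in clr4d, 0.04 in cdc10-v50 and -0.03 in wild type. At 2.4 kb to the left, mean input was thus close to the arm median where the mean ChIP signal was still low. These means include tiles of neighbouring poor stretches, which the rule chose as low. Of the 326 stretches, 125 had another within 5 kb.

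**Figure D1:**
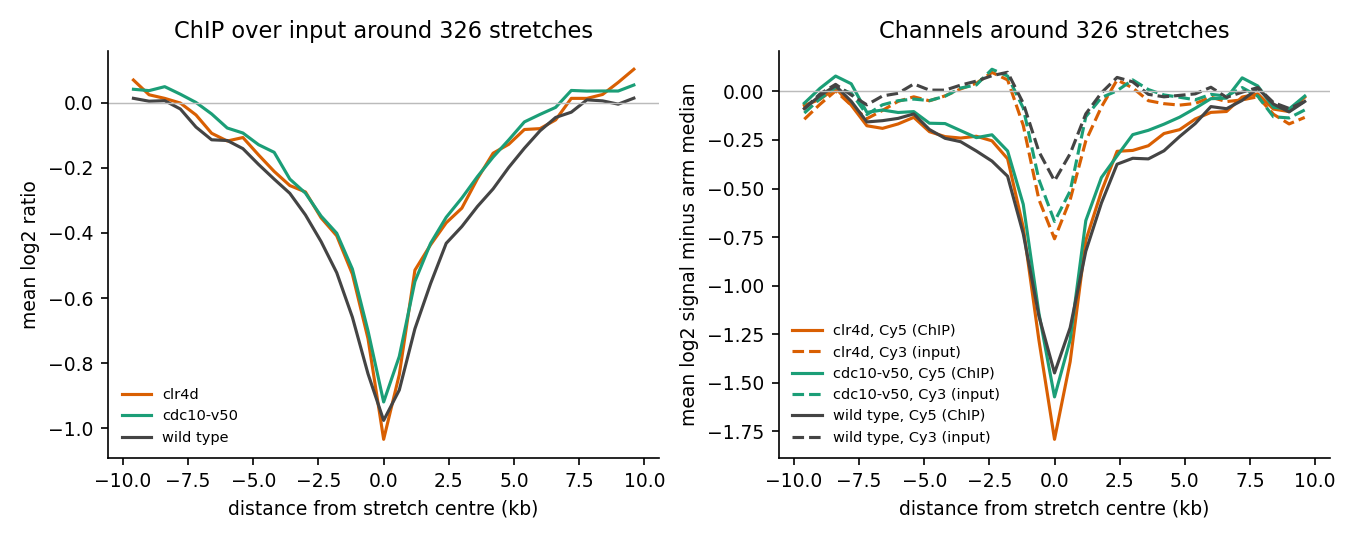
Mean log2 ratio of ChIP over input (left) and mean log2 signal of each channel relative to its arm median (right) against distance in kb from the centres of the 326 Psc3-poor stretches, in bins of 0.6 kb, for clr4d, cdc10-v50 and wild type. The ratio returned to about 0 near 7.2 kb in the 3 groups, and the dashed input lines reached the arm median nearer to the centre than the solid ChIP lines.

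A reading free of the choice comes from choosing stretches on 2 arrays and reading the array left out. Tiles with S of -0.7 or lower in cdc10-v50 and wild type numbered 1733, and in clr4d they had a median S of -0.83 (SD 0.41). Of them, 63.2% passed the threshold in clr4d as well, against 11.2% of all arm tiles. The 1690 tiles chosen on clr4d and wild type had a median of -0.78 in cdc10-v50 (SD 0.24), and 64.8% passed there, against 7.68% of all arm tiles. The 1704 tiles chosen on both mutants had a median of -0.80 in wild type (SD 0.32), and 64.3% passed there, against 12.1% of all arm tiles. These readings are of single arrays that share probes and their base composition.

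Few of the places chosen on 2 arrays had a mean S above 0 on the array left out. Among all arm tiles, 50.8% had S below 0 in clr4d, 53.9% in cdc10-v50 and 53.7% in wild type. Of the chosen tiles 95.7%, 100% and 99.1% did, in the same order of groups. In cdc10-v50 all 441 stretches chosen without it had a mean S below 0, and the highest was -0.05. In wild type 6 of 456 were above 0, and the highest had S of 0.32, at chr1:4133701-4134000. In clr4d 13 of 435 were above 0. The highest of those lay at chr2:2799901-2800500, with S of 0.85 in clr4d, against -0.81 in cdc10-v50 and -0.88 in wild type. There the Cy5 signal of clr4d was 0.28 and its Cy3 signal -1.09 relative to the arm median, while Cy5 was -1.65 in cdc10-v50 and -1.69 in wild type.

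**Figure D2:**
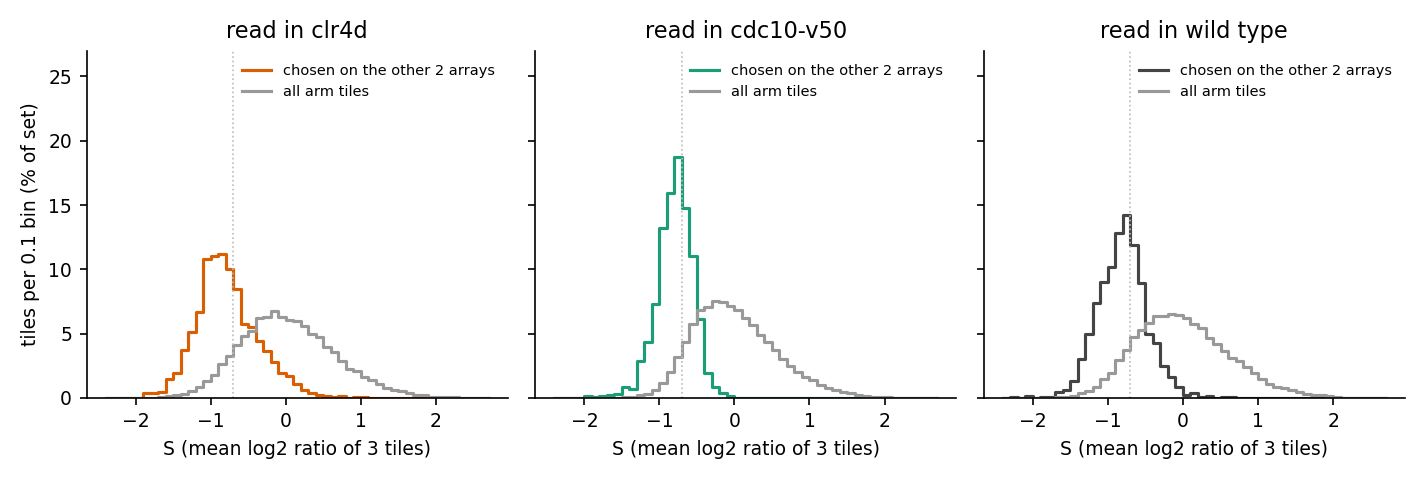
Share of tiles (%) per 0.1 bin of S, the mean log2 ratio of 3 neighbouring tiles, in the group named above each panel. Coloured lines are tiles chosen at -0.7 or lower (dotted line) on the other 2 arrays and grey lines all arm tiles; the chosen tiles centre at -0.83 in clr4d, -0.78 in cdc10-v50 and -0.80 in wild type.

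Because the rule demands a low value in every group, it limits how far the groups can differ inside the stretches, and the comparisons that follow are a description. S of poor tiles differed by a median of -0.04 between clr4d and wild type (SD 0.29), and by 0.05 (SD 0.22) between cdc10-v50 and wild type. The first difference was -0.10 after background correction by normexp and -0.24 after loess, so its size depends on the normalization. The sign of the second turned after normexp, to -0.04, and after loess, to -0.04. At 1.5-fold or more, 28 poor tiles were higher in clr4d than in wild type and 41 lower, or 2.56% and 3.74%. Over all arm tiles the shares were 12.1% higher and 8.4% lower. In cdc10-v50 11 poor tiles were higher than in wild type and 4 lower, or 1.00% and 0.365%, where all arm tiles gave 4.48% and 4.45%. Between the mutants, 9 poor tiles were higher in clr4d than in cdc10-v50 and 27 lower, where all arm tiles gave 7.23% and 4.09%. The wild-type array was read with an earlier version of the scanner software. It reached saturation at 65526, where the limit was 776412 for clr4d and 776395 for cdc10-v50, so genotype and scan cannot be told apart.

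Over whole stretches, 2 of 326 were higher in clr4d than in wild type by 1.5-fold or more, and 7 lower. The lowest in clr4d relative to wild type, chr2:4161601-4162200, had mean S of -1.77 in clr4d, -0.95 in cdc10-v50 and -0.84 in wild type. The highest, chr1:3988501-3989700, had -0.92 in clr4d, -1.20 in cdc10-v50 and -1.55 in wild type. For cdc10-v50 against wild type 1 stretch passed in each direction. The stretch at chr1:4434901-4435200 had -0.76 in cdc10-v50 and -1.48 in wild type, with -0.86 in clr4d. The stretch at chr3:1453201-1453500 had -1.503 in cdc10-v50 and -0.79 in wild type, with -0.80 in clr4d. The group where a stretch was least low was cdc10-v50 for 158, wild type for 109 and clr4d for 59. Over all arm tiles, too, S spread least in cdc10-v50 (SD 0.55), against 0.62 in clr4d and 0.61 in wild type. These counts are therefore not particular to the stretches.

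How deep a stretch was on one array said little about its depth on another. Across the 326 stretches Pearson's r of mean S was 0.06 between clr4d and wild type, 0.31 between cdc10-v50 and wild type and 0.22 between the mutants. Across 36866 arm tiles it was 0.70, 0.82 and 0.80 in the same order. The stretches were cut from one end of the range, which narrows it, and the points share probes.

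**Figure D3:**
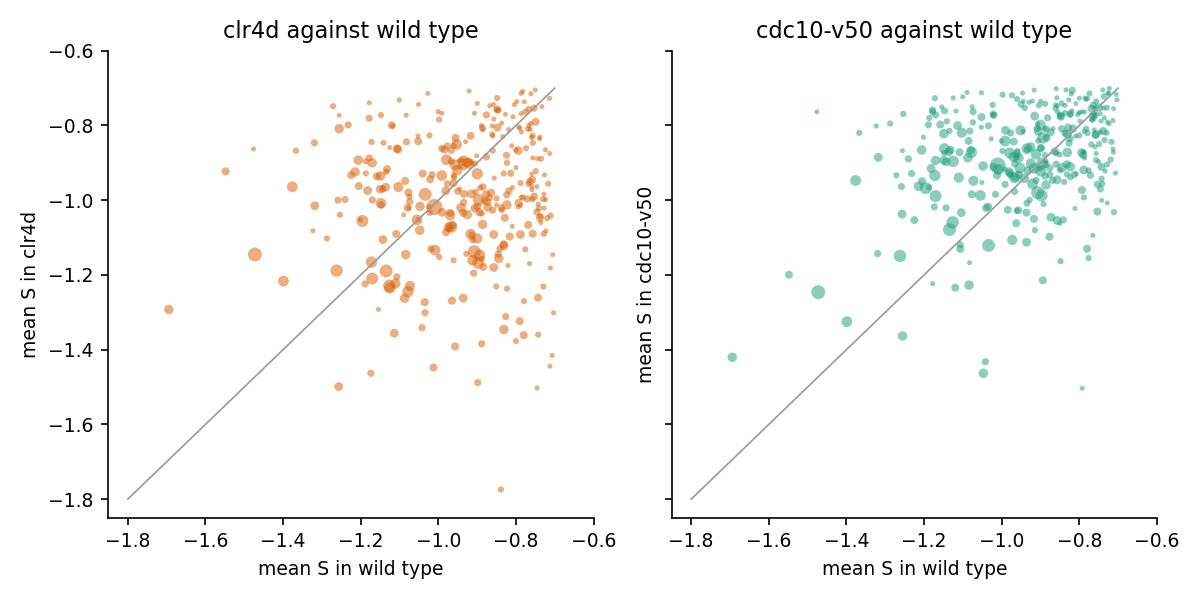
Mean S of each of the 326 Psc3-poor stretches in clr4d (left) and cdc10-v50 (right) against its mean S in wild type, on log2 scales. Each point is a stretch, its area grows with the number of tiles, and the line marks equal values; points spread on both sides of it.

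The longest stretches were not all of a kind. At chr1:3375001-3381000, 6 kb long with 19 poor tiles, mean S was -1.02 in clr4d, -0.91 in cdc10-v50 and -1.01 in wild type, and the Cy3 signal stood at 0.10, -0.05 and 0.18 in that order. The input there was near the arm median in each group, and the ChIP channel alone was low. At chr1:1952401-1958400, also 6 kb long with 14 poor tiles, mean S was -1.15 in clr4d, -1.25 in cdc10-v50 and -1.47 in wild type, but the Cy3 signal was low as well, at -1.01, -0.95 and -1.22. Its poor tiles ranged from -2.33 to -0.59 in clr4d, from -1.83 to -0.60 in cdc10-v50 and from -1.97 to -0.99 in wild type. The 6 tiles of the span that were not poor lay between -0.88 and -0.09 in clr4d, so the low signal of that array was broken there.

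Of the next in length, chr2:3667801-3672600 spanned 4.8 kb with mean S of -1.14 in clr4d, -0.98 in cdc10-v50 and -0.91 in wild type. The stretch chr1:5201101-5205000 spanned 3.9 kb with -0.98 in clr4d, -1.12 in cdc10-v50 and -1.03 in wild type. A length of 3.6 kb was shared by chr2:1305601-1309200, chr2:2736001-2739600 and chr2:4092601-4096200. Their mean S lay between -1.19 and -1.05 in clr4d, -1.08 and -0.83 in cdc10-v50, and -1.13 and -0.89 in wild type. In all, 19 stretches were at least 3 kb long.

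Ranked by the group where each is least low, the lowest stretch was chr2:4020601-4022400. It had mean S of -1.29 in clr4d, -1.42 in cdc10-v50 and -1.69 in wild type. It turned on 1 tile, chr2:4021501-4021800, whose log2 ratio was -3.72 in clr4d, -3.36 in cdc10-v50 and -2.93 in wild type. That tile had a bright input, at 2.34 in clr4d, 2.40 in cdc10-v50 and 1.83 in wild type relative to the arm median. The remaining 5 tiles of the stretch ranged from -1.17 to -0.61 in clr4d, from -1.57 to -0.44 in cdc10-v50 and from -1.91 to -1.01 in wild type. The next by that rank, chr2:4130701-4133100, had -1.22 in clr4d, -1.33 in cdc10-v50 and -1.40 in wild type, with Cy3 at -1.52, -1.44 and -1.59 in that order.

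Others were low with an input near or above the arm median. At chr1:4006501-4009800 mean S was -1.19 in clr4d, -1.15 in cdc10-v50 and -1.26 in wild type, with Cy3 at 0.11, 0.13 and 0.09 in that order. At chr2:3860401-3863700 it was -1.23 in clr4d, -1.06 in cdc10-v50 and -1.13 in wild type, with Cy3 at 0.63, 0.52 and -0.05. Both are 3.3 kb long, a run of 11 poor tiles each.

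**Figure D4:**
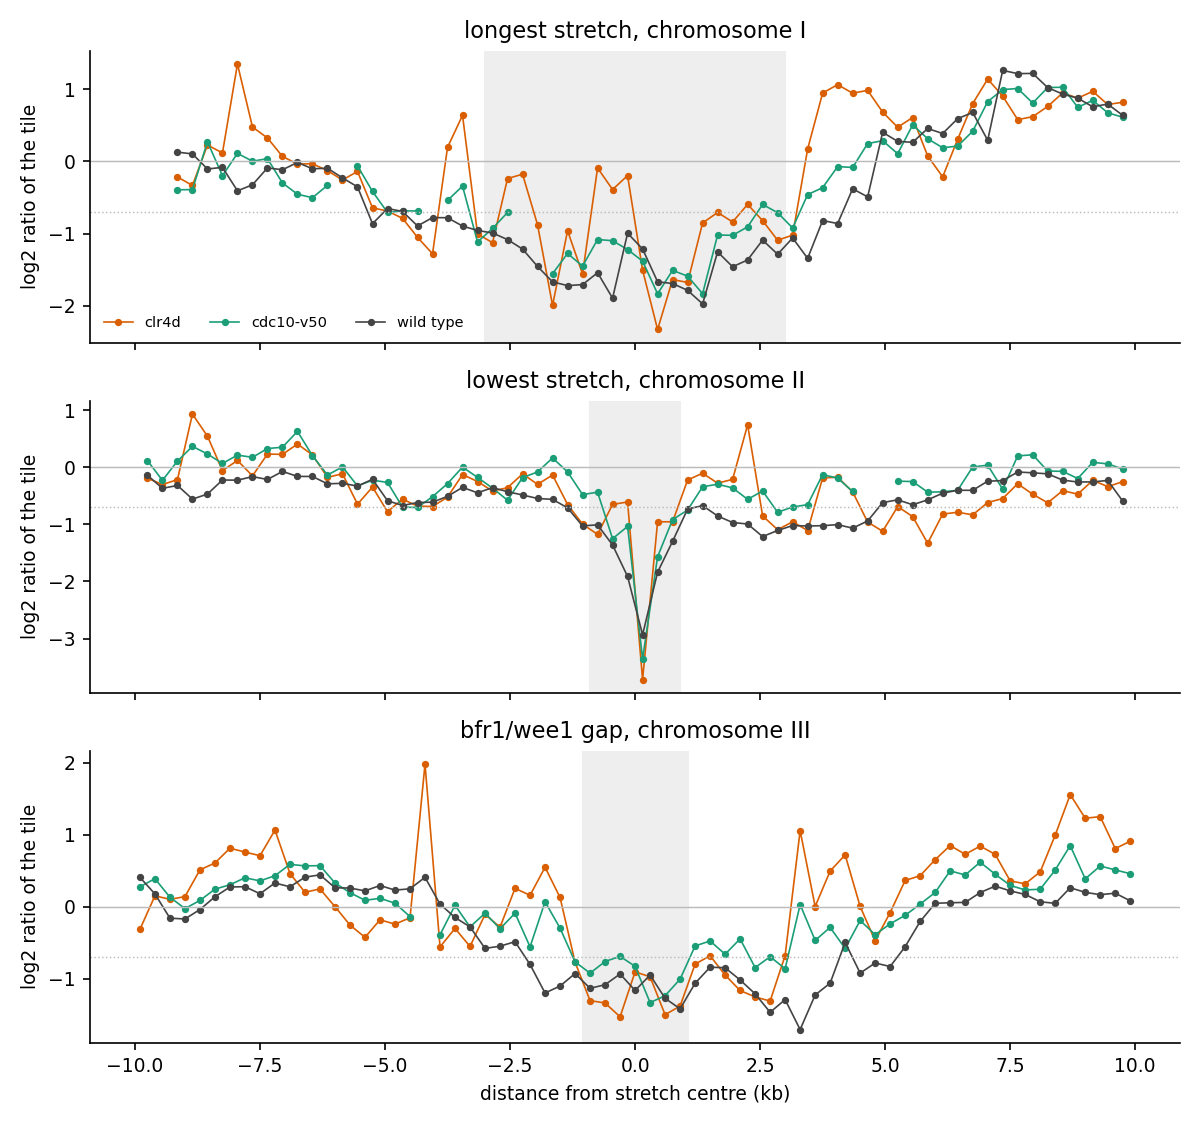
Log2 ratio of ChIP over input of each tile against distance in kb from the stretch centre, for chr1:1952401-1958400 (top), chr2:4020601-4022400 (middle) and the larger stretch of the bfr1/wee1 gap (bottom), in clr4d, cdc10-v50 and wild type. Grey bands span the stretches and dotted lines mark -0.7; the middle stretch holds 1 tile at -3.72 in clr4d, -3.36 in cdc10-v50 and -2.93 in wild type.

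On chromosome III between 100 and 1000 kb, 76 of 2820 tiles were Psc3-poor (2.7%), in 31 stretches, and their surroundings could be read from the annotation. Each tile was placed by its centre, either inside a protein-coding gene (from start to stop codon) or in a gap between neighbouring coding genes. A gap is divergent where both genes start there, convergent where both end there, and tandem where one ends and the next starts. Divergent gaps held the most poor tiles, with 37 of 76 (48.7%), against 463 of all 2820 tiles (16.4%). Convergent gaps held none of the 76, though 188 of all tiles (6.67%) lay there. Tandem gaps held 15 (19.7%), against 19.8% of all tiles, and coding genes held 24 (31.6%), against 57.1%. Read the other way, 7.99% of divergent-gap tiles were Psc3-poor, 2.69% of tandem-gap tiles, 1.49% of tiles in genes and 0% of convergent-gap tiles.

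The mirror set lay the other way round. Of its 159 rich tiles in the interval, 3 (1.89%) were in divergent gaps, 26 (16.4%) in convergent gaps and 111 (69.8%) in genes. With the ends of the annotated mRNA as gene limits, 23 poor tiles (30.3%) stayed in divergent gaps, against 11.4% of all tiles, and 39 (51.3%) fell inside genes, against 77.2%. Those limits leave 38 of all tiles (1.35%) in convergent gaps, so that 0 of 76 poor tiles there is near the share of all tiles. With positions shifted by 100 bp either way the divergent share was 46.1% or 51.3%, and the shift that gave 51.3% put 1 poor tile in a convergent gap. Without the bfr1/wee1 gap it was 42.6% of 68 poor tiles, against 15.6% of all tiles.

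**Figure D5:**
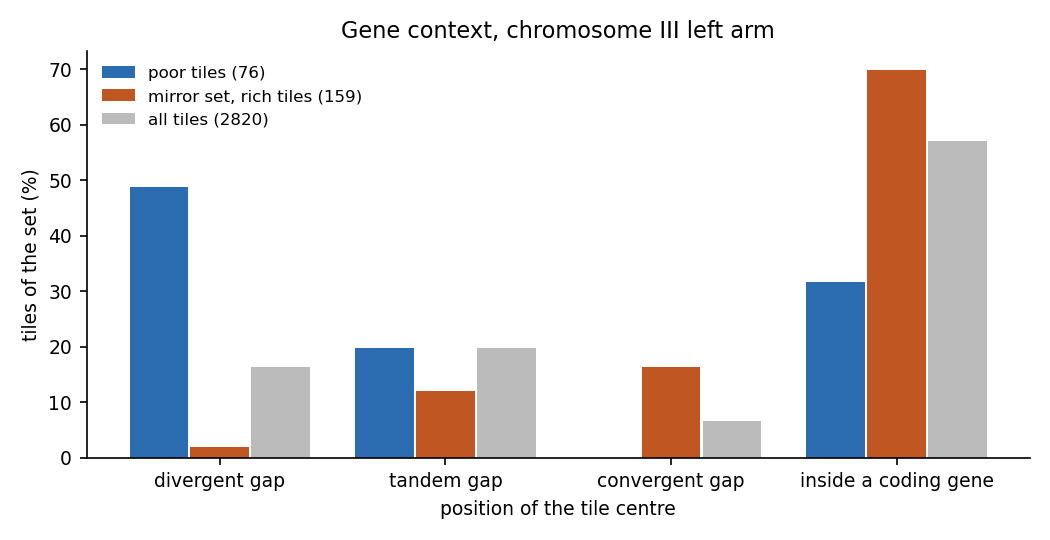
Share of tiles (%) by position of the tile centre on chromosome III between 100 and 1000 kb, for 76 Psc3-poor tiles, 159 tiles of the Psc3-rich mirror set and all 2820 tiles. Poor tiles were in divergent gaps in 48.7% of cases and in convergent gaps in none.

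The same order ran through the tiles of each kind of gap as a whole. Divergent-gap tiles had a median log2 ratio of -0.29 in clr4d (SD 0.70), -0.44 in cdc10-v50 (SD 0.50) and -0.62 in wild type (SD 0.50). Convergent-gap tiles had 0.46 in clr4d (SD 0.69), 0.31 in cdc10-v50 (SD 0.55) and 0.06 in wild type (SD 0.65). Tandem gaps stood between them, at 0.04 in clr4d, -0.09 in cdc10-v50 and -0.30 in wild type. These medians hold the poor tiles that the rule chose.

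Input differed little between poor and other tiles of divergent gaps in clr4d and wild type, and was lower in the poor ones in cdc10-v50. Poor tiles there had a median Cy3 signal of -0.58 in clr4d, -0.43 in cdc10-v50 and -0.34 in wild type relative to the arm median, and the other tiles -0.64, -0.16 and -0.32 in that order. Their Cy5 signal was -1.64 in clr4d, -1.31 in cdc10-v50 and -1.26 in wild type, against -0.90, -0.54 and -0.89 in the other divergent-gap tiles. In tandem gaps the poor tiles were dim in input too, at -1.66 in clr4d, -1.21 in cdc10-v50 and -0.86 in wild type, against -0.63, -0.17 and -0.34 in the other tandem-gap tiles.

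Of the 31 stretches, 21 reached into a divergent gap and 14 lay wholly in one, 7 reached into a tandem gap, and 4 lay wholly inside genes. Long divergent gaps held them more often, but a longer gap also has more tiles in which one can be found. Shares per tile by gap length were not computed. A poor tile was found in 9 of 22 divergent gaps of at least 2 kb and in 9 of 68 shorter ones. The median divergent gap with a poor tile was 2013 bp long, and that without one 1143.5 bp. Tandem gaps held one in 7 of 158 cases and convergent gaps in 0 of 88. Convergent gaps were short, with a median of 522.5 bp, and 2 of them reached 2 kb.

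The distances to gene starts partly restate the gap classes, since a divergent gap has a start at both ends. Of the 76, 77.6% were nearer to a coding start than to a stop, against 54.4% of the other tiles and 30.8% of the rich mirror tiles. Their median distance was 646.5 bp to a start and 1319.5 bp to a stop, against 690 bp and 762.5 bp for the other tiles. Inside genes cut into 3 equal parts, 14 of the 24 poor tiles were in the part next to the start (58.3%), against 32.7% of all gene tiles and 18.0% of rich ones. An annotated noncoding RNA covered the centre of 60.5% of poor tiles and of 47.0% of the others. That share was not split by kind of place, so the part of the gap classes in it was not tested. Near the 10 tRNA genes of the interval, 0 of 32 tiles within 500 bp were poor, a count too small to set against the 2.7% of all tiles.

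Base composition differed little over all places and more within divergent gaps. GC content had a median of 35.3% in poor tiles and 36.3% in the others. Within divergent gaps the order was reversed, with 35.3% in poor tiles and 32.7% in the others. The share of poor tiles among divergent-gap tiles was 20.7% in the richest of 4 groups by GC, a set of 29, and 5.73% in the poorest, a set of 227. Runs of 6 or more A or T, searched as AAAAAA and TTTTTT on the plus strand, were present in 59.5% of poor tiles in divergent gaps and in 73.7% of the other divergent-gap tiles. Over all 2820 tiles 54.4% held such a run.

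The gap with the most poor tiles lies between bfr1 and wee1. Wee1 is the kinase that holds back entry into mitosis, and bfr1 codes for a transporter of the ABC family that gives resistance to brefeldin A. The gap is 8226 bp long and held 8 poor tiles of 27. The larger stretch, chr3:715501-717600, had mean S of -1.22 in clr4d (SD 0.10), -0.94 in cdc10-v50 (SD 0.17) and -1.11 in wild type (SD 0.09, 7 tiles each). Its log2 ratios ran from -1.53 to -0.91 in clr4d, from -1.33 to -0.69 in cdc10-v50 and from -1.42 to -0.94 in wild type. Every tile was thus well below the array median in each group, and the bases at chr3:717001-717300 shown above lie in it. A single tile further on, chr3:719101-719400, had S of -1.08 in clr4d, -0.80 in cdc10-v50 and -1.32 in wild type.

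The gap between mug4 and fil1, 3799 bp long, held a stretch of 5 tiles at chr3:809701-811200. Fil1 is a transcription factor, and mug4 is named as a gene raised in meiosis. Mean S was -1.12 in clr4d (SD 0.19), -0.82 in cdc10-v50 (SD 0.09) and -0.83 in wild type (SD 0.03). Its input was at or above the arm median, with Cy3 at 0.20 in clr4d, 0.02 in cdc10-v50 and 0.36 in wild type, and Cy5 at -0.98, -0.81 and -0.53 in that order. The gap between SPCC320.03 and SPCC1235.01 was alike in this respect. Its stretch chr3:172501-173400 had mean S of -1.49 in clr4d, -0.86 in cdc10-v50 and -0.90 in wild type, with Cy3 at 0.21, 0.02 and 0.02.

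Some stretches ran from a divergent gap into a gene. The stretch chr3:642301-644700 began in the gap between taf5, which codes for a subunit of the transcription factor TFIID, and cut1, which codes for separase, the protease that opens the cohesin ring at anaphase. It took in the start of cut1 as well and held 2 gap tiles and 3 gene tiles, but was not continuous. No poor tile lay between chr3:642900 and chr3:643801. All 5 tiles of the gap together averaged log2 ratios of -0.40 in clr4d, -0.59 in cdc10-v50 and -1.34 in wild type. Mean S of the poor tiles was -0.97 in clr4d (SD 0.20), -0.89 in cdc10-v50 (SD 0.12) and -1.15 in wild type (SD 0.24). The 3 tiles inside cut1 had log2 ratios of -1.14, -1.45 and -0.54 in clr4d, -1.03, -1.31 and -0.73 in cdc10-v50, and -0.996, -0.89 and -1.08 in wild type. These 3 were the only poor ones among the tiles of cut1, all near its start.

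The stretch chr3:741001-741900 spanned the short divergent gap between cds1, which codes for a checkpoint kinase of DNA replication, and cab5, which codes for dephospho-CoA kinase. Its tiles had log2 ratios of -0.87, -1.38 and -0.87 in clr4d, -0.74, -1.13 and -1.17 in cdc10-v50, and -0.80, -0.93 and -0.99 in wild type. The input there was dim, with Cy3 at -1.30 in clr4d, -1.04 in cdc10-v50 and -0.51 in wild type. At chr3:994501-995100 the stretch joined the start of gms1, which codes for a Golgi transporter of UDP-galactose, to its divergent gap with vcx1. Mean S was -1.38 in clr4d, -0.83 in cdc10-v50 and -0.80 in wild type. In this stretch clr4d was the lowest.

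Stretches of tandem gaps were fewer. The stretch chr3:125101-127500 ran from inside alg11, which codes for a mannosyltransferase of N-glycan assembly, through the tandem gap to the start of enp2. Mean S was -0.91 in clr4d (SD 0.11), -0.89 in cdc10-v50 (SD 0.09) and -0.96 in wild type (SD 0.16, 8 tiles each), and Cy3 was -0.94, -0.59 and -0.51 in that order. Next to it lay chr3:119401-122700, at 3.3 kb the longest of the interval, over the gene SPCC330.07C, annotated as a transporter, and its surroundings. That stretch was broken too, with no poor tile between chr3:120300 and chr3:121201. Mean S of its poor tiles was -0.89 in clr4d, -0.87 in cdc10-v50 and -0.98 in wild type. The stretch chr3:505801-506400 lies in the tandem gap between erv29 and rpl3601, which codes for ribosomal protein L36. That gap holds the end of rpl3601 and the start of erv29. Mean S of the stretch was -1.04 in clr4d, -0.77 in cdc10-v50 and -1.25 in wild type, with a dim input at -1.34, -1.37 and -0.94.

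Whole genes with low Psc3 were rare. Of 254 genes with at least 3 tiles, 4 (1.57%) had a mean log2 ratio of -0.7 or lower in all 3 groups. SPCC16C4.04, an uncharacterized gene, had -0.90 in clr4d, -0.87 in cdc10-v50 and -1.10 in wild type. SPCC330.07C had -0.92 in clr4d, -0.80 in cdc10-v50 and -0.92 in wild type. The tRNA pseudouridine synthase gene pus3 had -0.80 in clr4d, -0.79 in cdc10-v50 and -0.84 in wild type. For alg11 the means were -0.87 in clr4d, -0.71 in cdc10-v50 and -0.86 in wild type. All 4 hold poor tiles, so these means follow from the choice. After loess the stretches of pus3 and alg11 kept a poor tile, and those of SPCC16C4.04 and SPCC330.07C kept none. The input over the stretch of SPCC16C4.04, chr3:667501-668700, was dim, with Cy3 at -2.24 in clr4d, -1.92 in cdc10-v50 and -1.53 in wild type. Over that of pus3, chr3:670201-670800, it was -0.17 in clr4d, -0.30 in cdc10-v50 and 0.24 in wild type.

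Just short of that threshold came get4, whose product helps to insert tail-anchored membrane proteins, at -0.68 in clr4d, -0.73 in cdc10-v50 and -0.83 in wild type. The coilin gene mug174 had -0.80 in clr4d, -0.72 in cdc10-v50 and -0.68 in wild type. The gene vps3, for a regulator of a GTPase, had no poor tile and yet averaged -0.77 in clr4d, -0.61 in cdc10-v50 and -0.72 in wild type over 10 tiles. Sec15, a subunit of the exocyst, had -0.91 in clr4d, -0.83 in cdc10-v50 and -0.54 in wild type over 8 tiles, also with no poor tile. Spf1, a subunit of the Set1 complex, had -0.74 in clr4d, -0.63 in cdc10-v50 and -0.58 in wild type.

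The gene lists gave few members. Over all 336 genes with a tile in the interval, 15 held a poor tile, and the counts below are too small to set against that. Of 16 transporter genes 2 held a poor tile, SPCC330.07C and gms1, and 1 was low as a whole. The 16 had a median of 0.14 in clr4d, 0.13 in cdc10-v50 and 0.05 in wild type, and all 254 genes had -0.07, -0.02 and -0.01. Of 7 ribosomal protein genes none held a poor tile, and none had 3 tiles. Of 7 transcription factor genes none held a poor tile, and the 5 with at least 3 tiles had a median of -0.30 in clr4d, -0.08 in cdc10-v50 and -0.10 in wild type. Of 27 genes at least 3 kb long, cut1 alone held poor tiles. No gene for cohesin or its loader was measured in the interval. The single glycolysis gene, tpi1, had no poor tile and read -0.97 in clr4d, -0.13 in cdc10-v50 and 0.30 in wild type.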

How the data were processed

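Each sample is 1 array with ChIP DNA in Cy5 and input DNA in Cy3, with no dye swap, which limits the precision throughout. Per the file headers, Agilent Feature Extraction 11.5.1.1 read both mutant arrays and 11.0.1.1 the wild-type array. That software subtracted background and normalized the dyes to give the deposited processed intensity. Median intensity, local background, a log10 ratio and 0 or 1 flags are deposited beside it. The deposited series table holds log2 of Cy3 over Cy5, opposite in sign to the values here and not centred, with column medians of 0.04 in clr4d, 0.06 in cdc10-v50 and -0.17 in wild type. It equals minus the scanner ratio within 0.001 on all 41551 probes.

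From these files the log2 ratio of processed signals was centred on the median over genome probes, which was -0.04 in clr4d, -0.06 in cdc10-v50 and 0.17 in wild type before centring. Control spots (1417) were dropped, and non-uniform spots were kept out of the ratios: 9 in clr4d, 1215 in cdc10-v50 and 62 in wild type. For cdc10-v50 the software's own summary asked for evaluation. S needed 2 usable spots of 3 and tile starts at most 1 kb apart. Tiles whose names end in f, m or r were not used. Excluded were chromosome I from 3.7 to 3.84 Mb, II from 1.54 to 1.7 and from 2.1 to 2.16 Mb, and III from 1.01 to 1.2 Mb. The code was tested on simulated arrays with planted depletions and noise drawn independently for each tile and array. The real arrays are correlated with each other, so that run gives no rate of false stretches for these data.

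Genes were named from RefSeq ASM294v3 on chromosome III from 100 to 1000 kb, where 353 coding genes lie and 336 have a tile. Stretches were named as the 10 longest and the 10 lowest in the group where each is highest, and genes likewise as the 20 lowest with at least 3 tiles plus those of named stretches, of which those with a clear place in the results are printed. The members and lists were chosen with earlier results of these data known. Alternatives were normexp (offset 50, on median signals since these files hold no mean signal) and loess in limma 3.58.1 under R 4.3.3, other thresholds, windows and joins, centring on the arm, saturated spots left out, and choice on 2 arrays. Tables were made with pandas 2.3.3 and numpy 2.4.6 under Python 3.11.15. No column of other samples was present (0).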

Additional observations from a re-analysis of the deposited data

How the results depend on the processing

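No paired analysis was possible because each group has 1 array. Of 130 recomputed values, 117 stayed within the limits set for them and none changed sign beyond its spread. For medians the limit was the SD over single tiles, a wide limit for a median. So the clr4d minus wild type difference counted as within its limit of 0.29 when it went from -0.04 to -0.24 after loess. Values recomputed from the deposited series table were bound to match, since that table holds the same ratios with the sign turned. They are counted in the 117, which is therefore no measure of robustness. The 13 values outside their limits are these. After loess the rule gave 129 stretches over 101.4 kb, and the poor tiles had a median log2 ratio of -0.64 in cdc10-v50 and -0.61 in wild type, while clr4d kept -0.87. Of the 326 stretches 73 kept a tile, among them 13 of the 19 of at least 3 kb. Those 73 had a median Cy3 signal of -0.27 in clr4d, -0.24 in cdc10-v50 and -0.04 in wild type, and the rest -0.79, -0.71 and -0.45. The cause was not tested. A threshold of -0.8 gave 189 stretches over 175.8 kb, and one of -0.6 gave 638.1 kb; both move by construction. Choosing on 2 arrays gave 557.4 kb without clr4d, 558 kb without cdc10-v50 and 559.5 kb without wild type, since fewer arrays must be low. With mRNA ends as gene limits the shares were 30.3% in divergent gaps and 51.3% in genes, and with at least 5 tiles 2 genes were low throughout. Among the other normalizations the divergent share was 43.8% after loess and 55.7% after normexp, which gave 393 stretches. Poor tiles are dim, so their ratios rest on less signal over background than those of other arm tiles.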

Other observations

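The 13 places that were low in cdc10-v50 and wild type but above 0 in clr4d were mostly dim. In 9 of them the clr4d input stood more than 1 log2 unit below the arm median. The brightest input of the 13 was 0.17 in clr4d, at chr1:3575701-3576000, where S was 0.16 in clr4d, -0.70 in cdc10-v50 and -1.15 in wild type. The 6 places low in both mutants but above 0 in wild type include chr2:1914601-1914900. S there was -0.79 in clr4d, -0.88 in cdc10-v50 and 0.27 in wild type. The input there was above the arm median in each group, at 1.53, 0.82 and 1.04 in the same order. These places were picked for their difference, and no replicate array checks them.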
